A study of Mus musculus with 19 samples.

Results

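Lipogenic enzymes and their regulator Srebf1 were followed in mouse quadriceps through 10 genes, Fasn, Acaca, Acly, Elovl6, Scd1, Scd2, Scd3, Srebf1, Thrsp and Me1, of 24741 named genes tested. They were read by 18 probes, all of them tested, out of 32026 tested probes. The set was chosen by measured values, the lower signals of several of these genes under a high-fat diet in AR113Q muscle and in both genotypes pooled. Those 2 diet comparisons, and the diet comparison in control muscle that is part of the pooled one, are therefore given as a description. Counts of genes past test thresholds in these comparisons describe the arrays and are not independent evidence. The arrays came from male C57Bl6J mice aged 180 days, either wild-type controls (CTR) or AR113Q knock-in mice, which model spinal and bulbar muscular atrophy (SBMA) by carrying the expanded polyglutamine tract in their own androgen receptor gene, so that the mutant receptor is not confined to muscle. Mice of each genotype ate a purified normal chow diet (NCD) or, from 40 days of age, a high-fat diet (HFD). The NCD groups held 5 CTR-NCD and 5 AR113Q-NCD arrays and the HFD groups 5 AR113Q-HFD and 4 CTR-HFD arrays, each with 1 Cy3-labelled sample, on 5 slides. Nothing in the labels says that each sample was a separate mouse, so p-values measure the spread between samples. All 9 skeletal muscle markers, from Acta1 and Ckm to Ttn, were detected on every array.

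De novo lipogenesis builds fatty acids from citrate that leaves the mitochondrion. Acly splits that citrate into acetyl-CoA, Acaca carboxylates acetyl-CoA to malonyl-CoA, Fasn joins these units into palmitate with NADPH that Me1 helps to supply, Elovl6 lengthens palmitate, and the Scd enzymes introduce a double bond. Srebf1 encodes SREBP1, a membrane-bound factor that is cleaved and then switches on most of these genes, chiefly after feeding and insulin, and Thrsp encodes Spot 14, a nuclear protein of lipogenic tissues. Liver and fat are the main sites of the pathway, and muscle tissue contains fat cells between its fibers.

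All values are log2 signals of a probe relative to the 75th percentile of its array, so that 0 stands for that percentile and a difference of 1 for a doubling. They order the arrays for a probe and do not order the genes among themselves. Each gene is led by its tested probe with the highest mean. The Scd genes are near-identical neighbours, and the results of Scd3 differ between its 3 probes, so the sequences of these probes are shown beside those of Fasn, Srebf1 and Scd1 (the first 30 of 60 bases of each probe, 5′ to 3′; positions are those of the whole probe in mm9).
Fasn, chr11:120667666-120667725, minus strand: attggtagggtacaaaggtgttcagaggat
Srebf1, chr11:60012664-60012723, minus strand: ggtcggcatccacaggccgcacacttccaa
Scd1, chr19:44469387-44469446, minus strand: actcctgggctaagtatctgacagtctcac
Scd3 probe A_55_P2052759, chr19:44318249-44318308, plus strand: ataaagtcaaccataggtcaagaggcagag
Scd3 probe A_55_P2099594, chr19:44289995-44290054, plus strand: aagacatccgtcctgaaatgaaagaagata
Scd3 probe A_51_P446045, chr19:44316703-44316762, plus strand: ttcagggtaggtgtctcaagccaaatccaa
The longest run of bases that the whole probe A_55_P2099594 shares with the whole Scd1 probe is 5 bases long. This compares the probes only with each other. The match of A_55_P2099594 to the Scd1 transcript was not compared, so the run cannot show whether this probe also reads Scd1.

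Promoter windows from RefSeq, from 250 bases before to 50 bases after a gene's start in GRCm38.p6, were found for 8 of the 10 genes, in 11 windows. They were searched on both strands for CCAAT, the letters of the box bound by NF-Y, for TCACNCCAC, the letters of a sterol regulatory element, and for the E-box CACGTG. The windows of Fasn, Elovl6 and Thrsp are shown because these genes moved together among arrays, with CCAAT on either strand in capitals.
Fasn, chr11:120824498-120824797, minus strand: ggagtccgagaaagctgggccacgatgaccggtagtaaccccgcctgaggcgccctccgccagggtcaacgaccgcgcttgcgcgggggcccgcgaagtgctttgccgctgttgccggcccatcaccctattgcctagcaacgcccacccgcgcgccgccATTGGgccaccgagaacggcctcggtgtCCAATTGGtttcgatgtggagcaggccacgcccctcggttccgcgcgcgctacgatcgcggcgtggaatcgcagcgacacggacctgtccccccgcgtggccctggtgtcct
Elovl6, chr3:129532136-129532435, plus strand: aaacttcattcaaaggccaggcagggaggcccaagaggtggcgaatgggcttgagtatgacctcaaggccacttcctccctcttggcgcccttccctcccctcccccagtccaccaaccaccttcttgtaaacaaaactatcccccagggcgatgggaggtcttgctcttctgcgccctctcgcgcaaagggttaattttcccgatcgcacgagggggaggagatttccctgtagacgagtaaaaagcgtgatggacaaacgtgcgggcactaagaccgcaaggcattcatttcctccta
Thrsp, chr7:97417501-97417800, minus strand: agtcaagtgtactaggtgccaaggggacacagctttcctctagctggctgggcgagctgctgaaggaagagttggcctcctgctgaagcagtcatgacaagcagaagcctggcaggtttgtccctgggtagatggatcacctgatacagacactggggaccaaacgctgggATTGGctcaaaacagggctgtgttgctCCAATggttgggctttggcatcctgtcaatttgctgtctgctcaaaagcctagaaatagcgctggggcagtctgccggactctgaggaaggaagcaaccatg
Fasn held 3 copies of CCAAT, of which 1 pair overlapped, and Thrsp held 2 copies, while Elovl6 held 0. CCAAT lay in 6 of the 11 windows, which belonged to 5 genes (Fasn, Acly, Srebf1, Thrsp and Me1), and in 37.4% of 32851 mouse promoter windows. TCACNCCAC and CACGTG lay in 0 of the 11 windows, and in 1.24% and 7.15% of all windows.

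Fasn, the synthase that makes palmitate, had its highest signals in AR113Q-NCD muscle and its lowest under the HFD. The CTR-NCD arrays read −2.29, −1.53, −1.72, −0.73 and −0.96, and the AR113Q-NCD arrays −0.73, 1.01, 0.01, −0.53 and 0.39. The CTR-HFD arrays read −3.72, −2.37, −3.42 and −2.29, and the AR113Q-HFD arrays −3.13, −2.57, −2.49, −3.71 and −3.01. Every HFD array lay below every NCD array, though in CTR mice the highest HFD and the lowest NCD array were separated only beyond the second decimal. On the NCD the means were 0.03 ± 0.70 (SD, n = 5) in AR113Q and −1.45 ± 0.62 (SD, n = 5) in CTR muscle, and on the HFD they were −2.98 ± 0.49 (SD, n = 5) and −2.95 ± 0.73 (SD, n = 4).

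Acly, which supplies acetyl-CoA, read 1.55, 1.88, 1.63, 2.07 and 2.20 in CTR-NCD and 2.49, 3.73, 2.72, 2.32 and 3.1 in AR113Q-NCD arrays. Its signals were 1.39, 1.42, 1.5 and 1.75 in CTR-HFD and 1.66, 1.45, 1.45, 1.5 and 1.55 in AR113Q-HFD arrays. All AR113Q-NCD arrays lay above the other 14 arrays, and the HFD groups overlapped each other and, in CTR mice, the NCD group. The second Acly probe, A_55_P2082914, did not separate these groups. It overlapped between the diets in AR113Q muscle (log2 difference −0.89) and between the genotypes on the NCD (0.62).

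Acaca, the carboxylase, read 1.46, 1.72, 1.71, 2.41 and 2.11 in CTR-NCD and 2.14, 3.36, 2.60, 2.37 and 3.02 in AR113Q-NCD arrays. In HFD muscle it read 1.08, 1.26, 1.33 and 1.40 in CTR and 1.29, 1.18, 1.52, 1.02 and 1.41 in AR113Q arrays. The NCD groups overlapped, and in each genotype every HFD array lay below every NCD array. A second Acaca probe, A_55_P2084706, shares a run of 55 bases with the first and followed it closely. Another 2 probes, A_55_P2121392 and A_55_P2084703, were also lower under the HFD in AR113Q muscle, with log2 differences of −1.54 and −1.17.

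Elovl6, which elongates palmitate, varied most among AR113Q-NCD arrays, at −1.12, 1.35, −0.47, −0.78 and 0.07, against −3.09, −2.16, −2.50, −1.67 and −1.48 in CTR-NCD arrays. Under the HFD it read −3.55, −3.07, −3.19 and −3.31 in CTR and −2.75, −3.26, −3.05, −3.23 and −3.07 in AR113Q arrays. Every AR113Q-NCD array was above all others, and the HFD arrays of both genotypes formed a narrow low range that only CTR-NCD replicate 1 entered.

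Thrsp, or Spot 14, read 1.86, 1.97, 1.93, 2.38 and 2.66 in CTR-NCD and 2.78, 3.84, 2.95, 2.60 and 3.37 in AR113Q-NCD arrays. Its HFD signals were 1.46, 1.73, 2.02 and 1.89 in CTR and 2.35, 2.49, 2.76, 1.97 and 2.52 in AR113Q arrays. The AR113Q arrays were mostly above the CTR arrays on the same diet, with an overlap on both diets. Me1, the cytosolic malic enzyme, went the other way with genotype, at 4.94, 4.92, 4.73, 5.30 and 5.39 in CTR-NCD against 4.36, 4.54, 4.32, 4.48 and 4.55 in AR113Q-NCD arrays. Under the HFD Me1 read 5.22, 5.38, 4.73 and 5.48 in CTR and 4.41, 4.71, 4.45, 4.64 and 4.40 in AR113Q arrays. By this lead probe every AR113Q array lay below every CTR array on either diet. The genotypes overlapped on both diets by the Me1 probe A_55_P2171413, and on the HFD by A_55_P2016842.

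Srebf1 varied little within groups, with SDs of 0.29 and 0.21 in CTR muscle and of 0.11 and 0.08 in AR113Q muscle on the NCD and the HFD. The CTR-NCD arrays read −1.31, −0.85, −1.16, −0.85 and −0.58 and the CTR-HFD arrays −1.80, −1.56, −1.76 and −1.35. The AR113Q-NCD arrays read −2.50, −2.25, −2.30, −2.23 and −2.39 and the AR113Q-HFD arrays −2.72, −2.72, −2.54, −2.62 and −2.73. The 4 groups did not overlap, with CTR-NCD highest, then CTR-HFD, AR113Q-NCD and AR113Q-HFD. The order of Srebf1 thus differed from that of Fasn, Acaca, Acly and Elovl6, which were highest in AR113Q-NCD muscle.

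**Figure D1:**
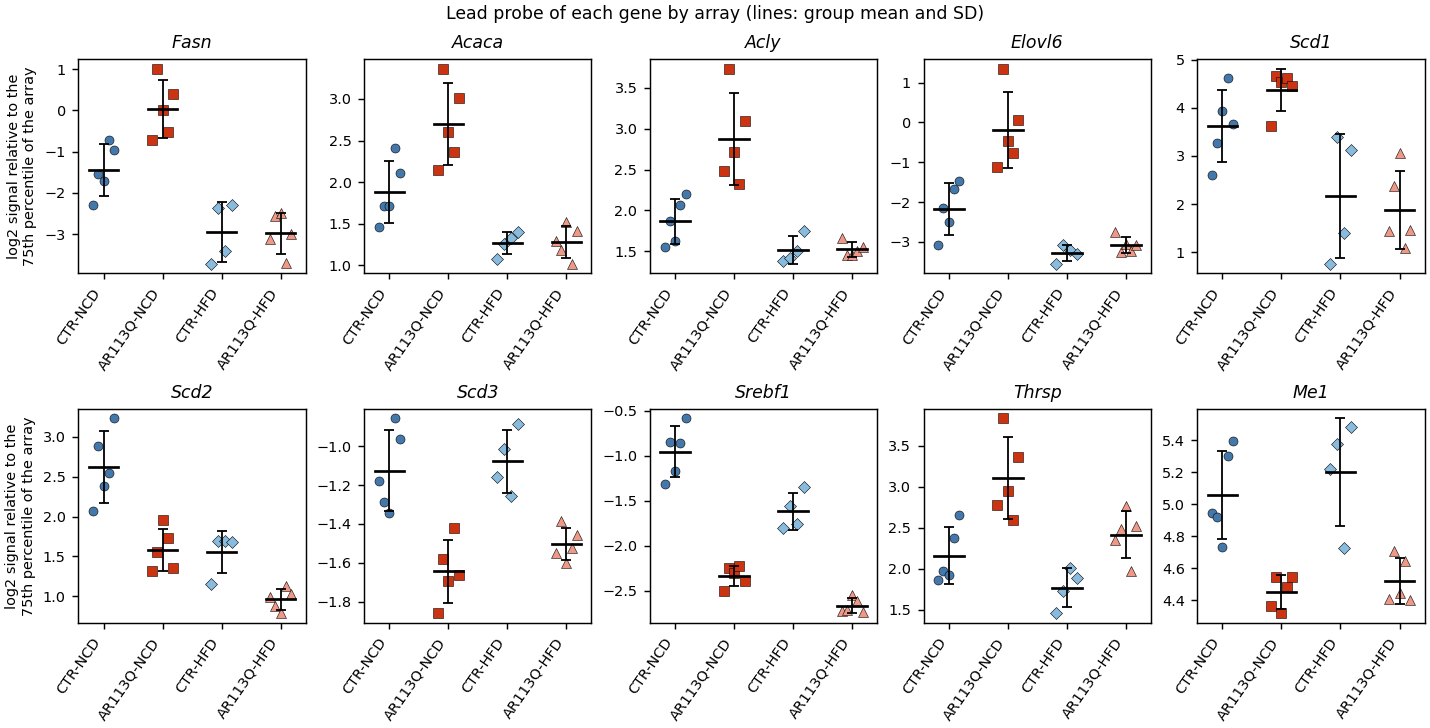
Log2 signal relative to the array's 75th percentile (y axis) of the lead probe of each of the 10 genes, with 1 point per array in each of the 4 groups (x axis) and bars for the mean and SD. Fasn, Acaca, Acly and Elovl6 were highest in AR113Q-NCD arrays, while Srebf1 ran from −0.95 in CTR-NCD to −2.67 in AR113Q-HFD arrays.

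The desaturases followed different patterns. Scd1, the main isoform of fat and liver, read 2.61, 3.27, 3.94, 4.62 and 3.65 in CTR-NCD and 3.61, 4.66, 4.53, 4.61 and 4.46 in AR113Q-NCD arrays. With the HFD it read 0.76, 3.39, 1.40 and 3.12 in CTR and 1.45, 2.37, 3.06, 1.09 and 1.46 in AR113Q arrays. In CTR mice 2 HFD arrays lay within the NCD range and the other 2 lay below it, while in AR113Q mice all HFD arrays were below all NCD arrays.

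Scd2, the isoform known from brain and developing tissue, read 2.07, 2.88, 2.38, 2.55 and 3.23 in CTR-NCD and 1.32, 1.55, 1.95, 1.73 and 1.35 in AR113Q-NCD arrays. It read 1.15, 1.69, 1.69 and 1.69 in CTR-HFD and 1.0, 0.89, 0.79, 1.12 and 1.03 in AR113Q-HFD arrays. Scd2 was thus highest in CTR-NCD and lowest in AR113Q-HFD muscle, and only the 2 middle groups overlapped.

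The 3 Scd3 probes did not agree. The lead probe, A_55_P2052759, read −1.18, −1.29, −1.34, −0.86 and −0.96 in CTR-NCD and −1.16, −1.01, −1.26 and −0.89 in CTR-HFD arrays. In AR113Q muscle it read −1.86, −1.58, −1.69, −1.42 and −1.67 on the NCD and −1.55, −1.38, −1.60, −1.52 and −1.46 on the HFD. It was lower in all AR113Q arrays than in any CTR array and did not separate the diets. The probe A_55_P2099594 read −3.84, −3.44, −2.90, −2.11 and −3.20 in CTR-NCD and −4.58, −3.52, −4.82 and −3.91 in CTR-HFD arrays. In AR113Q muscle it read −2.74, −1.87, −2.52, −2.60 and −2.57 on the NCD and −4.05, −4.82, −3.83, −5.16 and −5.04 on the HFD. It separated the diets in AR113Q mice and followed Scd1, with a Pearson r of 0.93 over the 19 arrays and 0.79 after group means were subtracted. The Scd3 lead probe had an r with Scd1 of −0.05 over the arrays and 0.50 with group means subtracted, and A_51_P446045 one of −0.07 and −0.40. The latter stayed between −4.88 and −3.41 in all groups. Among near-identical copies such as Scd1 and Scd3, the gene that A_55_P2099594 read is uncertain.

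**Figure D2:**
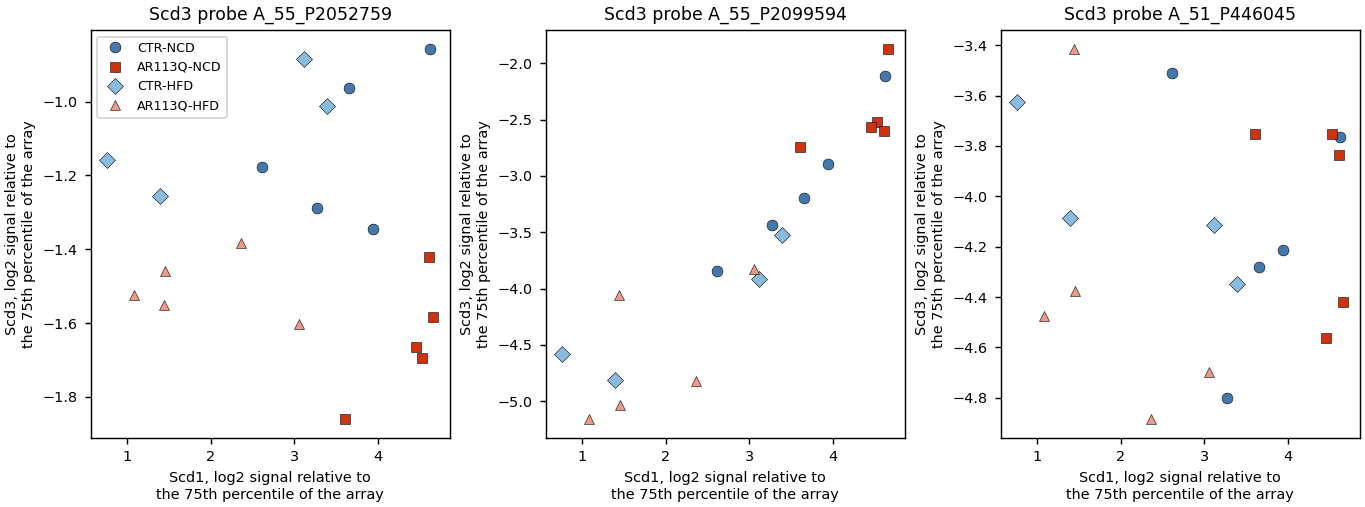
Log2 signal of each of the 3 Scd3 probes (y axis) against that of Scd1 (x axis), with 1 point per array coloured by group. With group differences left in, A_55_P2099594 rises with Scd1 (r = 0.93), and the other 2 probes have an r of −0.05 and −0.07.

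On every AR113Q-HFD array Fasn, Elovl6, Scd1, Acaca and Acly read lower than on any AR113Q-NCD array. As a description of the values that chose the genes, Fasn had a log2 difference between AR113Q-HFD and AR113Q-NCD of −3.01 (8.08-fold lower), Elovl6 of −2.88 (7.37-fold), Scd1 of −2.49 (5.61-fold), Acaca of −1.41 (2.67-fold) and Acly of −1.35 (2.55-fold). The differences were −0.69 for Thrsp, −0.62 for Scd2 and −0.33 for Srebf1, and 0.07 for Me1 and 0.14 for the Scd3 lead probe. Of the 10 genes, 5 passed both thresholds used here (adjusted limma p below 0.05 together with a ratio of 1.5 or more, or of 0.6 or less) as lower, namely Fasn, Acaca, Acly, Elovl6 and, through A_55_P2099594, Scd3, beside 0.0243% of all tested genes, and 0 passed as higher beside 0.00404%. The member probe just inside the thresholds was this Scd3 probe, at −2.12, and the one just outside was the Acaca probe A_55_P2121392, at −1.54. Normexp background correction gave −1.16 for this Scd3 probe and the authors' table −0.63, and it passed under neither. With the slide as a block, 2 genes passed. Srebf1 differed least among the genes whose arrays did not overlap, which were 7 of 10 beside 1.11% of all genes. Without AR113Q-NCD replicate 5 the number of genes past both thresholds was 0, and it was 1 without AR113Q-HFD replicate 2 and 2 without AR113Q-NCD replicate 3 or AR113Q-HFD replicates 1 or 5. The only other genes past the thresholds were the transcript annotated NAP092820-001, at −2.83, and Fam171b, at 1.03.

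Pooled over both genotypes, the log2 difference between HFD and NCD was −2.26 for Fasn, −1.99 for Elovl6, −1.97 for Scd1, −1.01 for Acaca, −0.85 for Acly, −0.84 for Scd2, −0.54 for Thrsp and −0.50 for Srebf1. Me1 and the Scd3 lead probe differed by 0.11 and 0.09. Again 5 genes passed the thresholds as lower, with Scd2 in the place of Acly, beside 0.0243% of all genes. The number was 1 without CTR-HFD replicate 4 or AR113Q-HFD replicates 2 or 4, and 2 without AR113Q-NCD replicate 3 or CTR-HFD replicate 1. In the pooled comparison the Scd3 probe was at −1.61, and at −0.46 with the authors' values, where it did not pass. These pooled values contain the arrays of both genotypes and are likewise a description.

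The diet difference in CTR muscle was read on the CTR arrays, which entered the pooled values that chose the genes. These values and their test counts are therefore a description too and not independent evidence. Fasn had a log2 difference of −1.50 (standard error 0.41, 2.83-fold lower). Scd1 differed by −1.45, Elovl6 by −1.10, Scd2 by −1.07, Srebf1 by −0.66, Acaca by −0.61, Thrsp by −0.39 and Acly by −0.35, and Me1 and Scd3 were at 0.14 and 0.05. Past both thresholds were 0 of the 10 genes, as were 0% of all genes in either direction, by limma with Benjamini-Hochberg adjustment over all probes.

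The counts in this paragraph use CTR arrays that entered the choice of genes, so they describe these arrays and are not independent evidence. Before adjustment, 6 of the 10 genes (Fasn, Acaca, Elovl6, Scd1, Scd2 and Srebf1) had a limma p under 0.05 and were lower, beside 3.11% of all genes, and 0 were higher, beside 5.25%. All CTR-HFD arrays lay below all CTR-NCD arrays for Fasn, Acaca, Scd2 and Srebf1, or 4 of 10 genes beside 1.12% of all genes. The median log2 difference of the 10 genes was −0.64, beside 0.02 over all genes. Within each of the 4 slides that held both CTR groups, the HFD array was lower for Fasn (−1.70 to −0.83), Elovl6 (−1.83 to −0.46), Acaca (−0.71 to −0.38), Acly (−0.46 to −0.13), Scd2 (−1.54 to −0.68) and Srebf1 (−0.77 to −0.49), and on 3 of 4 slides for Scd1 (−2.54 to 0.12).

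The diet difference of AR113Q mice minus that of CTR mice was −1.78 for Elovl6, −1.51 for Fasn, −1.04 for Scd1, −1.0 for Acly and −0.80 for Acaca on the log2 scale. For Thrsp it was −0.30, for Srebf1 0.33 and for Scd2 0.45. It contains the AR113Q diet comparison and is given as a description: 0 of 10 genes, and 0% of all genes, reached a limma adjusted p below 0.05. Before adjustment, 4 genes (Fasn, Acaca, Acly and Elovl6) had a p under 0.05 in the negative direction, beside 2.85% of all genes, and 0 in the positive direction, beside 1.77%.

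On the NCD, AR113Q muscle carried more transcript of the enzymes from citrate to elongated palmitate and less of Srebf1 and Scd2 than CTR muscle. The AR113Q-NCD arrays are also part of the comparison that chose the genes, and choosing genes with lower AR113Q-HFD signals favours genes that are high on these arrays. The fits below therefore describe the enzymes that were higher and are not independent evidence of that direction. Elovl6 was 3.97-fold higher (log2 difference 1.99, standard error 0.37, adjusted p = 0.0012 from limma) and Acly 2.01-fold higher (1.01, standard error 0.21, adjusted p = 0.0024), with no overlap between the groups. The second Acly probe, A_55_P2082914, was at 0.62 with overlap and did not pass (adjusted p = 0.110 from limma). Fasn was 2.78-fold higher (1.48, standard error 0.38, adjusted p = 0.0127 from limma), Thrsp 1.92-fold (0.94, adjusted p = 0.0065) and Acaca 1.76-fold (0.81, adjusted p = 0.0114), with overlap. Scd1 was at 0.75 (standard error 0.51) and did not pass.

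In the same comparison, Srebf1 was 2.60-fold lower in AR113Q muscle (log2 difference −1.38, standard error 0.12, adjusted p = 1.83e-06 from limma), and Scd2 was 2.06-fold lower (−1.04, standard error 0.19, adjusted p = 0.00085). Me1 and the Scd3 lead probe had log2 differences of −0.61 and −0.52 with adjusted p of 0.0063 and 0.0021 from limma, which missed only the fold threshold, and all 3 Me1 probes had negative differences. In all, 5 of 10 genes passed as higher, beside 2.52% of all genes, and 2 as lower, beside 2.3%. By the lead probes, every AR113Q-NCD array lay above every CTR-NCD array for 2 genes (beside 7.11%) and below for 4 genes, Scd2, Scd3, Srebf1 and Me1 (beside 8.07%).

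A single array stood apart in this comparison. AR113Q-NCD replicate 2 was the highest array of all for Fasn, Acaca, Acly, Elovl6 and Thrsp, and its mean log2 signal over the brown adipocyte markers Ucp1, Cidea and Dio2 was 1.98, against −2.61 to −0.55 on the other 4 AR113Q-NCD arrays. Without this array, Fasn differed by 1.23 (adjusted p = 0.0375 from limma), Elovl6 by 1.61 (0.0012), Acaca by 0.65 (0.0300), Acly by 0.79 (0.0025) and Thrsp by 0.76 (0.0161), so all 5 still passed. Across the 5 slides, AR113Q-NCD minus CTR-NCD ran from 0.20 to 2.54 for Fasn, from 0.90 to 3.51 for Elovl6, from 0.25 to 1.86 for Acly and from −1.80 to −1.14 for Srebf1, with 1 direction on all slides, while Acaca ran from −0.05 to 1.64 and was lower on 1 slide. With normexp background correction, the Fasn and Elovl6 differences were 1.13 and 1.26 and no longer passed (adjusted p of 0.105 and 0.118 from limma).

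On the HFD, the higher enzyme signals of AR113Q muscle were not detected, while Srebf1 was lower there too. The AR113Q-HFD arrays likewise belong to the comparison that chose the genes. Between AR113Q-HFD and CTR-HFD muscle Fasn differed by −0.03 (95% interval −0.89 to 0.83), Acaca by 0.02 (−0.45 to 0.48), Acly by 0.01 (−0.45 to 0.47), Elovl6 by 0.21 (−0.62 to 1.04) and Scd1 by −0.28 (−1.42 to 0.85) on the log2 scale. For Elovl6 the interval still holds a difference as large as a doubling. The Acaca probes did not agree here. A_55_P2121392 was at −0.77 (95% interval −1.36 to −0.17), with every AR113Q-HFD array below every CTR-HFD array. It did not pass (adjusted p = 0.0726 from limma), and A_55_P2084706 and A_55_P2084703 were at 0.02 and 0.09. Srebf1 was 2.07-fold lower (−1.05, standard error 0.13, adjusted p = 2.97e-05 from limma) and passed. Scd2 was at −0.59 (adjusted p = 0.0461 from limma), Me1 at −0.68 (0.0041) and the Scd3 lead probe at −0.43 (0.0115), all short of the fold threshold, and Thrsp at 0.65 (adjusted p = 0.0684 from limma).

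So 1 of 10 genes passed as lower, beside 2.17% of all genes, and 0 as higher, beside 3.18%. By the lead probes, every AR113Q-HFD array lay below every CTR-HFD array for Scd2, Scd3, Srebf1 and Me1, 4 of 10 genes beside 8.82% of all genes, and above for 0 genes, beside 6.89%. Srebf1 was lower on all 4 slides that held both groups, by −1.38 to −0.78. With normexp background correction its difference was −0.76 and did not pass (adjusted p = 0.0766 from limma). With the slide as a block, Thrsp was at 0.71 and passed as higher (adjusted p = 0.0257 from limma).

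**Figure D3:**
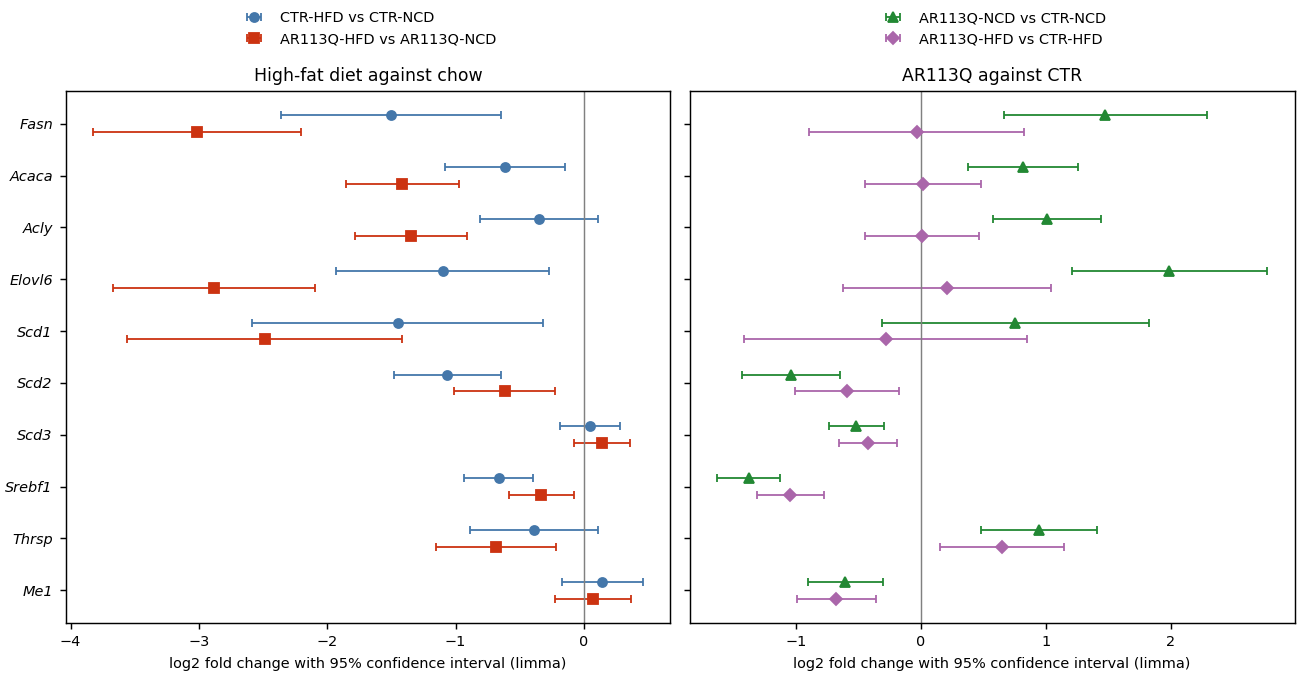
Log2 difference with its 95% interval (x axis) of each gene's lead probe (y axis), for the diet comparisons within each genotype and for the genotype comparisons on each diet. On the NCD Fasn, Acaca, Acly, Elovl6 and Thrsp lie above 0 in AR113Q muscle, on the HFD the intervals of the first 4 span 0, and Srebf1 lies below 0 on both diets.

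How far the genes moved together from array to array was measured on the deviations of each lead probe from its group mean over the 19 arrays. All 45 pairs of genes had a positive Pearson r, and 15 pairs had an adjusted p under 0.05 (permutation test within groups, 100000 permutations, Benjamini-Hochberg over the 45 pairs), against 13 pairs by Spearman's rho. The pairs share their arrays and the scaling of each array, and the count was 40 with median centring and 7 with normexp background correction. Without AR113Q-NCD replicate 4 the count was 25. Same-numbered arrays shared a slide, except CTR-HFD replicate 4, and the permutation within groups did not hold the slide fixed. A shift shared by the arrays of a slide therefore also counts as co-variation here. Over the tested probes, 19 of the 27 same-numbered pairs of arrays had deviations correlated above an r of 0.1. The genes were chosen with earlier results of these arrays known, so the p-values of pairs are a description and not independent evidence of co-variation.

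Fasn, Acaca, Acly, Elovl6 and Thrsp were linked to one another, with an r from 0.72 to 0.93. The pair of Acly and Elovl6 had an r of 0.93 (rho 0.86, adjusted permutation p = 0.00146) and 0.88 without the 2 arrays farthest from the median. Acaca had an r of 0.90 with Elovl6, 0.89 with Thrsp, 0.85 with Acly and 0.84 with Fasn. Fasn had an r of 0.80 with Thrsp, 0.76 with Elovl6 and 0.72 with Acly. Without the 2 farthest arrays the pair of Fasn and Acaca was at 0.78, Acly and Thrsp at 0.69, Fasn and Elovl6 at 0.66 and Fasn and Acly at 0.62.

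Scd1 was linked to Fasn (r = 0.81, rho = 0.80, adjusted permutation p = 0.00157, 0.83 without the 2 farthest arrays). Scd2 was linked to Srebf1 (r = 0.76, rho = 0.62, adjusted permutation p = 0.0155 for r and 0.0704 for rho), and that r was 0.54 without the 2 farthest arrays. The Scd3 lead probe moved with Me1 (r = 0.79, rho = 0.80, adjusted permutation p = 0.00225, 0.83 without the 2 farthest arrays). Srebf1 itself had an r of 0.65 with Fasn within groups (rho 0.67, adjusted permutation p = 0.0231, 0.59 without the 2 farthest arrays).

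**Figure D4:**
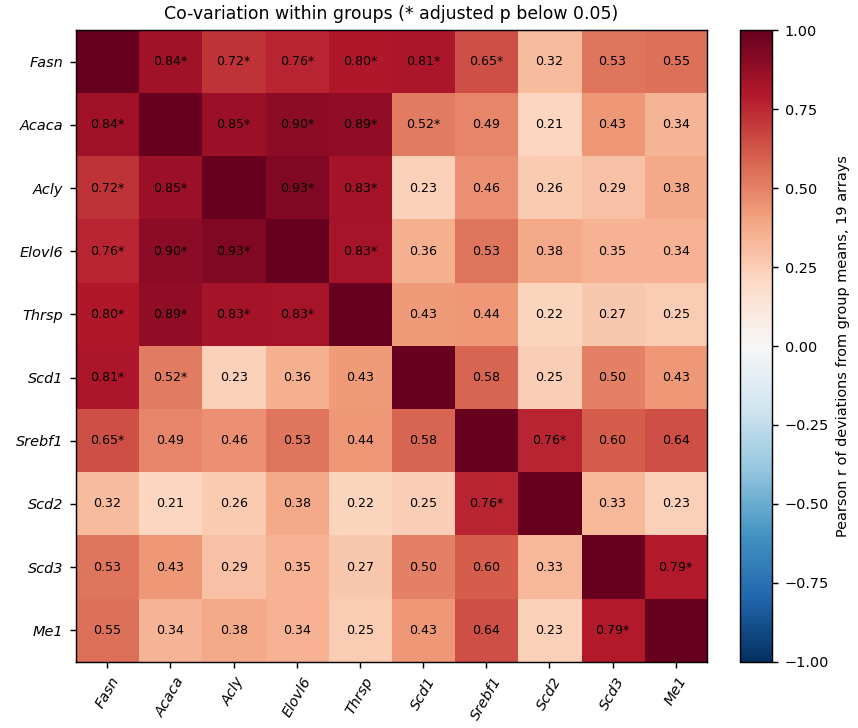
Pearson r between the lead probes of each pair of the 10 genes over 19 arrays, after subtraction of the group means (colour and number; a star marks an adjusted permutation p under 0.05). All 45 values are positive, and the highest, 0.93, is that of Acly and Elovl6.

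Over the 19 arrays with group differences left in, as a description, the genes whose signal was most like that of Fasn among 24649 genes were Acaca (r = 0.97), Slc25a1 (0.95), Elovl6 (0.94), Scd1 (0.92) and Acly (0.91). Slc25a1 encodes the carrier that exports citrate from mitochondria. Further genes outside the 10 with a high r were Tkt (0.89), a transketolase of the pentose phosphate pathway, NAP092820-001 (0.89), Pygl (0.86), Aldh1a7 (0.85), Aldh1l1 (0.84), G6pdx (0.84), which makes NADPH, Tlcd1 (0.83) and Cdo1 (0.81). Thrsp came at rank 21 (0.77). Scd2 had an r of 0.37, Srebf1 of 0.12 (rank 5680), Me1 of −0.17 and the Scd3 lead probe of −0.25. Srebf1 was instead most like Scd2 among the 10 genes, with an r of 0.90, followed by Me1 and Scd3 with 0.78 each. These were only ranks 232, 1267 and 1285 for likeness to Srebf1 among the 24649 genes, where Zfp180 came first (0.96). With group means subtracted, the ranks with Fasn among the 24649 genes were 7 for Acaca, 19 for Scd1, 24 for Thrsp, 47 for Elovl6, 82 for Acly, 260 for Srebf1, 887 for Me1, 1029 for Scd3 and 4742 for Scd2. The ranks with Srebf1 were 66 for Scd2, 596 for Fasn, 638 for Me1, 1054 for Scd3 and 1345 for Scd1. They were 2105 for Elovl6, 2938 for Acaca, 3535 for Acly and 3932 for Thrsp.

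Other genes of the pathway were described from lists of regulators, of further enzymes and of cholesterol synthesis. Of 31 tested genes of fatty acid synthesis, elongation, desaturation and supply other than the 10, 3 passed as higher in AR113Q-NCD against CTR-NCD muscle, the mitochondrial malic enzyme Me3 (log2 difference 0.68), the acetyl-CoA synthetase Acss2 (0.91) and the citrate carrier Slc25a1 (0.99), and 1 as lower, the acyl-CoA synthetase Acsl3 (−1.19), beside 2.52% and 2.3% of all genes. On the HFD 3 were higher in AR113Q muscle, Me3, Acss2 (through its second probe) and Aacs (0.64), and Acsl3 was lower (−1.51), beside 3.18% and 2.17% of all genes. The list medians were 0.19 and 0.05. In the diet comparisons 0 of the 31 genes passed in CTR mice and 0 in AR113Q mice, with Slc25a1 at −0.64 and −1.46.

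Among 15 regulators of lipogenic transcription, 1 gene passed in any comparison. This was Mbtps2, the protease that makes the second cut in SREBP, which was lower in AR113Q muscle by −1.07 on the NCD and −1.25 on the HFD through probe A_55_P2185910, beside 2.3% and 2.17% of all genes called lower, while its other probe, A_52_P530405, differed by −0.08 and −0.01. Insig1, an anchor of SREBP in the endoplasmic reticulum and a target of it, named here after its values were seen, differed between HFD and NCD by −0.69 in CTR and −0.45 in AR113Q mice and did not pass. Of 23 genes of cholesterol synthesis and uptake, targets of the related factor SREBP2, 1 passed, Hsd17b7, which was lower in AR113Q-NCD muscle (−0.77), beside 2.3% of all genes. In the diet comparisons 0 of the 23 passed, and the list medians were −0.06 in CTR and −0.11 in AR113Q mice.

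In bulk muscle RNA, fewer cells of a type cannot be told apart from less RNA per cell, and fat cells express the same enzymes. Among 8 white adipocyte markers (Adipoq, Plin1, Lep, Retn, Cfd, Fabp4, Cidec and Pparg), 0 passed in any comparison, and the median log2 difference was −0.01 for diet in CTR, −0.46 for diet in AR113Q, 0.21 for genotype on the NCD and −0.23 for genotype on the HFD. Their summed linear level in CTR muscle ran from 70.3 to 197 on the NCD and from 66.5 to 135 on the HFD, and in AR113Q muscle from 84.1 to 140 and from 55.3 to 184, and all 8 were well above background in every group. Within groups, Scd1 followed the mean of these markers (r = 0.91, rho = 0.90, adjusted permutation p = 0.0014, 0.89 without the 2 arrays farthest from the median). It was the only one of 70 relations, 10 genes with 7 marker lists and chosen after the values were seen, with an adjusted p under 0.05. The slide was not held fixed in these relations either. For Fasn that r was 0.71 (rho 0.71, adjusted permutation p = 0.0784). The part of fat cells in the group differences was not tested.

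Slow fiber markers (Tnni1, Tnnc1, Tnnt1, Myh7, Myl2 and Myl3) varied widely as well, with a summed level of 11.9 to 333 on the NCD and 3.49 to 390 on the HFD in CTR muscle, and of 279 to 559 and 6.90 to 216 in AR113Q muscle. Their median log2 difference was −1.63 for diet in CTR, −2.63 for diet in AR113Q, 2.38 for genotype on the NCD and 1.27 for genotype on the HFD, and 0 of the 6 passed in any comparison. Within groups their mean had an r of −0.74 with Me1 (rho −0.76, adjusted permutation p = 0.0784), −0.70 with Scd1 (rho −0.68, adjusted permutation p = 0.131), −0.58 with Scd3 and −0.56 with Fasn (rho −0.53, adjusted permutation p = 0.134). The summed level of the brown adipocyte markers Ucp1, Cidea and Dio2 was 0.69 to 1.39 on the NCD and 0.29 to 3.41 on the HFD in CTR muscle, and 1.49 to 28.7 and 0.89 to 3.66 in AR113Q muscle, and the fourth marker, Elovl3, was too dim to be tested. Of the 3 tested markers 0 passed in any comparison. Within groups their mean had an r of 0.77 with Elovl6 (rho 0.65, adjusted permutation p = 0.0784, and 0.49 without the 2 arrays farthest from the median), 0.65 with Acly, 0.64 with Acaca and 0.64 with Thrsp. Their part in the results was not tested. Of 7 Schwann cell, 4 macrophage and 4 endothelial markers 0 passed in any comparison. Among the 9 skeletal muscle markers 1 passed, Pvalb, lower in AR113Q muscle on both diets through probe A_55_P2059040 (log2 differences of −0.94 and −1.18). Before adjustment, 7 of the 9 had a limma p under 0.05 and were lower in AR113Q muscle on each diet, beside 14.8% of all genes on the NCD and 17.4% on the HFD. In the higher direction there were 0 on the NCD and 1 on the HFD. The medians of the 9 were −0.30 on the NCD and −0.47 on the HFD, beside −0.06 and −0.09 over all genes.

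**Figure D5:**
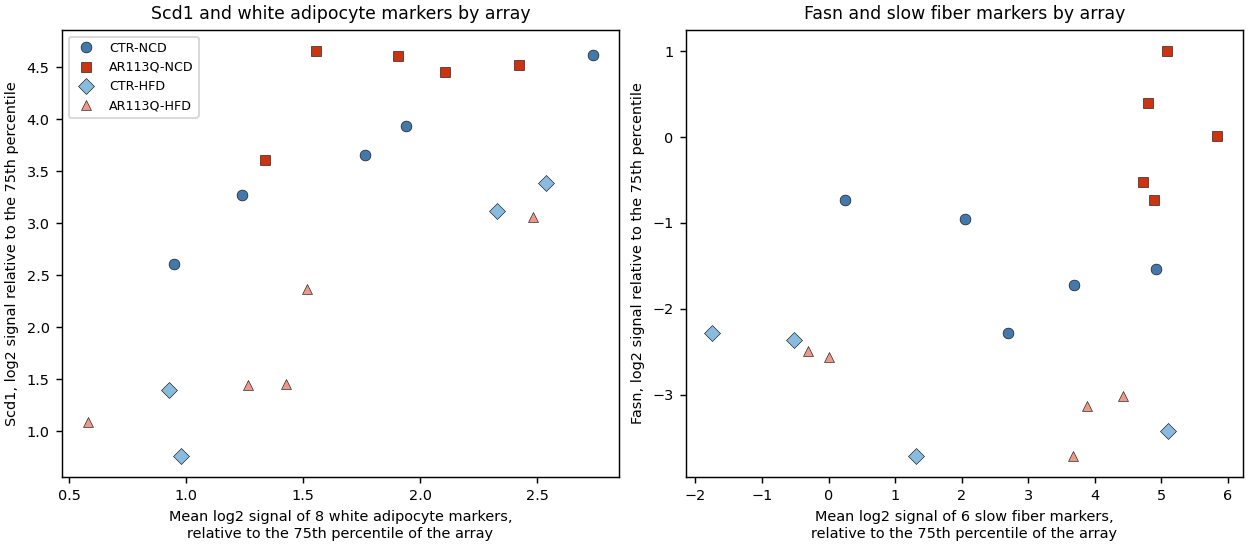
Scd1 against the mean log2 signal of 8 white adipocyte markers, and Fasn against that of 6 slow fiber markers, with 1 point per array coloured by group and all axes in log2 signal. Scd1 rises with the adipocyte markers within groups (r = 0.91), and Fasn has an r of −0.56 with the slow fiber markers.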

How the data were processed

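Total RNA of quadriceps was labelled with Cy3 and read on Agilent arrays, and the groups follow the sample labels. The authors scanned the arrays with Agilent Feature Extraction 10.7.3.1, and the deposited processed signal is an intensity from which, per the file headers, the local background was subtracted and trends across the array were removed, and arrays were not normalized against each other. A log2 value table that the authors deposited as well was used only as an alternative.

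Outlier spots and control spots were left out, the log2 signals of 43020 spots were averaged into 39429 probes, and each array was set to its own 75th percentile. Probes were tested where 4 or more of the 19 arrays had a share of 0.5 or more of the spots well above background. Between 67.1% and 80.1% of probes were well above background, no spot was saturated, and the number of arrays limits the precision. A single limma model (version 3.58.1, R 4.3.3) held all 4 groups, and p-values were adjusted over 32026 probes by the Benjamini-Hochberg method. Genes were called where a probe had an adjusted p below 0.05 together with a ratio of 1.5 or more, or of 0.6 or less, and for the interaction by the adjusted p alone. Replicate n lay on slide n, except CTR-HFD replicate 4, which lay on slide 5. Exact tests and correlations, with 100000 permutations within groups, were run in Python 3.11.15 with numpy 2.4.6, and figures were drawn with matplotlib 3.10.9. The scripts were tested on simulated data.

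The genes, the 11 lists and the tests were chosen with earlier results of these data known. The genes named are the 10 members with every probe, list genes called in any comparison or else the most changed one, the 10 genes most like Fasn, and other genes called for diet; not every gene that this rule sets is reported here. All 10 members were found by accession in RefSeq; promoters are from GRCm38.p6 and probe positions from mm9. The alternatives tried were normexp background correction with an offset of 50, quantile normalization, centring on the median, the log2 values of the authors' table, stricter and no filters, array weights, a variance trend, the slide or the replicate number as a block, no fold threshold, only the groups compared, and each array left out. The relations to marker lists were added after the values were seen.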

Additional observations from a re-analysis of the deposited data

Results flagged for a closer look

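Among the 40 groups of arrays of the 10 lead probes that were checked for an array far from the rest, 2 had one, and chance alone gives about 1 in 20. Scd1 on AR113Q-NCD replicate 1 was the lowest of its group at a log2 signal of 3.61, where the nearest array was at 4.46, a gap of 0.807 of the group's range. Scd2 on CTR-HFD replicate 1 was the lowest of its group at 1.15, where the nearest array was at 1.69, a gap of 0.983 of the range.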

How the results depend on the processing

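Between AR113Q-NCD and CTR-NCD, 7 of the 10 genes passed, and 7 passed with each array left out in turn. Over the 12 other alternatives this count ran from 5 to 9. For diet in CTR mice and for the interaction, 0 passed under any alternative. The AR113Q diet count of 5 genes was 3 with median centring, 2 with normexp background correction, 2 with the slide as a block, 2 with the replicate number as a block and 1 with only the groups compared, and 0 to 5 with each array left out. The pooled diet count of 5 was 3 with median centring, 1 with normexp, 7 with the slide block, the replicate block or a variance trend, 6 with probes well above background on all arrays and 1 to 5 with each array left out, with 3 without CTR-NCD replicate 3, AR113Q-NCD replicates 1 or 5, CTR-HFD replicate 2 or AR113Q-HFD replicate 5. Between AR113Q-HFD and CTR-HFD the count of 1 was 0 with normexp, 4 without the fold threshold, and 2 with quantile normalization, the authors' values, probes well above background on all arrays, the slide block, a variance trend or only the groups compared. With each array left out it was 1 to 2, and it was 2 without CTR-NCD replicate 4, AR113Q-NCD replicate 2, CTR-HFD replicate 3 or AR113Q-HFD replicate 4. The 15 correlated pairs became 40 with median centring, 7 with normexp and 13 to 25 with each array left out. The 2-sided exact permutation tests of single genes for diet in CTR mice used arrays that entered the choice of genes and support nothing. They gave 5 genes a p under 0.05, 3 genes without CTR-HFD replicate 1 or 3, and 3 to 5 genes over all arrays left out. Normexp turned the Scd3 probe A_55_P2099594 to 0.14 for the interaction and to −0.25 for genotype on the NCD, and the cause of these changes was not tested. Acaca missed the threshold for genotype on the NCD with the authors' values (0.62, adjusted p = 0.0581 from limma) and with only the groups compared (0.81, adjusted p = 0.0613). The adjusted p from limma for genotype on the NCD ranged over the alternatives from 0.0038 to 0.105 for Fasn, from 0.00044 to 0.118 for Elovl6 and from 3.1e-07 to 0.0049 for Srebf1. Normexp moved the median log2 difference over all probes by −0.67 for diet in CTR and by −0.51 for genotype on the NCD. Same-numbered arrays shared a slide, except CTR-HFD replicate 4. Of the 27 same-numbered pairs, 19 had deviations correlated above an r of 0.1 (range −0.21 to 0.54), whereas taking the numbers as pairs required all of them. The replicate block gave 1 gene for genotype on the HFD. The authors' table held the lead probes of 9 of the 10 genes, without that of Scd3. With 4 or 5 arrays a group, the number of arrays limits the differences that could be detected.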
